A study of Homo sapiens with 2 samples.

Results

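The miR-148/miR-152 family is a group of microRNAs (miRNAs) that come from separate hairpins and share the seed of their 3p arms, the bases at the 5′ end that pair with target messenger RNAs. Its members were taken by name: hsa-miR-148a-3p, hsa-miR-148a-5p, hsa-miR-148b-3p, hsa-miR-148b-5p and hsa-miR-152. These are 5 of the 859 human mature miRNAs and of the 5475 small RNA features in the deposited count table. The 3p arm of the miR-152 hairpin is listed there as hsa-miR-152 and not as hsa-miR-152-3p, and hsa-miR-152-5p is not listed. The lowest count of any listed feature was 3 over both libraries. An arm without an entry may have had fewer counts or may not have been in the annotation that was counted, and which of these holds was not tested.

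Small RNAs were sequenced from A549, an established human lung adenocarcinoma line grown in DMEM with fetal calf serum. One culture condition was normoxia, with 20% O2, and the other was hypoxia, with 1.2% O2, each held for 24 h before lysis. There was 1 library per condition, so no difference between them has a replicate check, and no test or p-value is given. SOLiD libraries were prepared by ligation and PCR, with no molecular identifiers to separate copies from molecules. The normoxia library held 4514818 counts on mature miRNAs, 70.0% of its 6449337 counts, and the hypoxia library 8600160, 65.6% of 13115226. The 95% intervals are exact, Clopper-Pearson for a share or level and conditional binomial for a ratio, and cover counting error only.

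The enzyme Dicer releases a pair of RNA arms from each miRNA hairpin, and an Argonaute protein retains one of them as the guide that represses messenger RNAs with a matching site. Members of the miR-148/miR-152 family are known to repress the DNA methyltransferase DNMT1 and the histocompatibility gene HLA-C, and miR-148a is known as an abundant miRNA of liver and exocrine pancreas.

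The mature 3p sequences show what the members share and where they differ. They are from RefSeq for GRCh38.p14, in which 4 of the 5 members were found (hsa-miR-152 under the name hsa-miR-152-3p), and capitals mark the seed, bases 2 to 8.
hsa-miR-148b-3p: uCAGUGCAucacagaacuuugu
hsa-miR-148a-3p: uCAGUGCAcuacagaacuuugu
hsa-miR-152: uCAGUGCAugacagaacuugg
The seed CAGUGCA was the same in all 3. With positions counted from 1 at the 5′ end and the base of miR-148b-3p written first, miR-148a-3p differed by U9C and C10U, and 20 of 22 bases were identical. miR-152 differed by C10G and U20G, was identical at 19 of the 21 positions compared, and was 1 base shorter. Among the 859 listed mature miRNAs, no others had CAGUGCA at bases 2 to 8, and 14, these 3 included, had the letters anywhere in the mature sequence. Seeds of listed names were read with 1 added base assumed at each end, a layout found for 653 of the 687 names in RefSeq. For SOLiD small RNA data the methods name the default parameters of the LifeScope pipeline, without naming this experiment or the mismatches allowed. The counts of such similar RNAs are therefore uncertain as separate measurements.

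The 5p arms are shown because their seeds differ by a shift of 1 base. The first sequence is from RefSeq. The second, for which that table had no entry, is from the deposited count table. That table writes T and, for 653 of the 687 listed names found in RefSeq, gives the mature sequence with 1 more base at each end, so the seed was read there at bases 3 to 9.
hsa-miR-148b-5p: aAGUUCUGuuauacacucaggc
hsa-miR-148a-5p: caAAGTTCTgagacactccgactc
The 8 letters AAGUUCUG began at position 1 of miR-148b-5p and, after removal of the added base, at position 2 of miR-148a-5p. The seeds were thus AGUUCUG and AAGUUCU, and each was found in 1 listed mature miRNA, the member itself.

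The hairpins lie on 3 chromosomes. In GENCODE version 29 on GRCh38, MIR148B (chr12:54337216-54337314, plus strand) lies in an intron of COPZ1 and of the overlapping noncoding gene AC078778.2, both on its strand. MIR152 (chr17:48037161-48037247, minus strand) lies in an intron of COPZ2, also on its strand. COPZ1 and COPZ2 encode the alternative zeta subunits of coatomer, the coat of vesicles that return from the Golgi to the endoplasmic reticulum. MIR148A (chr7:25949919-25949986, minus strand) overlaps no other annotated gene. The mature 3p arms are at chr12:54337278-54337299 for miR-148b, chr17:48037174-48037194 for miR-152 and chr7:25949922-25949943 for miR-148a on the same build.

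miR-148b-3p was by far the most counted member in both libraries. It had 2528 counts in normoxia and 8419 in hypoxia. Scaled to 1000000 mature miRNA counts per library (CPM), these were 560 (95% interval 538 to 582) and 979 (958 to 1000). The intervals did not overlap, and the level in hypoxia was 1.75 times that in normoxia (1.67 to 1.83), a log2 ratio of 0.81 (0.74 to 0.87). Under the other scalings tried the log2 ratio was 0.610 to 0.736, each time below the lower limit of 0.742. The interval thus does not cover the choice of scaling. By level miR-148b-3p was 70th of 859 in normoxia and 64th in hypoxia.

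miR-152 was the next member, with 340 counts in normoxia and 726 in hypoxia. Its level was 75.3 CPM (67.5 to 83.8) and 84.4 CPM (78.4 to 90.8), and the intervals overlapped. The log2 ratio of 0.16 (-0.023 to 0.35) had an interval that included 0, and it was -0.031 when libraries were scaled without their most abundant miRNAs, so its direction depended on the scaling. It was 171st by level in normoxia and 170th in hypoxia.

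miR-148a-3p, which differs from miR-148b-3p at a pair of positions, had 41 counts in normoxia and 61 in hypoxia. This gave 9.08 CPM (6.52 to 12.3) and 7.09 CPM (5.43 to 9.11). Its log2 ratio was -0.36 (-0.95 to 0.25), negative under all 5 scalings tried, and a difference between the libraries was not detectable at this depth. It was 322nd by level in normoxia and 358th in hypoxia.

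The 5p arms were near the lower limit of the table. miR-148b-5p had 7 counts in each library, 1.55 CPM (0.623 to 3.19) in normoxia and 0.814 CPM (0.327 to 1.68) in hypoxia. miR-148a-5p had 3 and 7 counts, 0.664 CPM (0.137 to 1.94) and 0.814 CPM (0.327 to 1.68). The log2 ratios, -0.93 (-2.67 to 0.81) and 0.29 (-1.84 to 2.88), had intervals that included 0. In both libraries the order by level was miR-148b-3p, miR-152, miR-148a-3p and then the 5p arms. The intervals of the 3p arms were separate from one another, and those of the 5p arms overlapped each other.

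**Figure D1:**
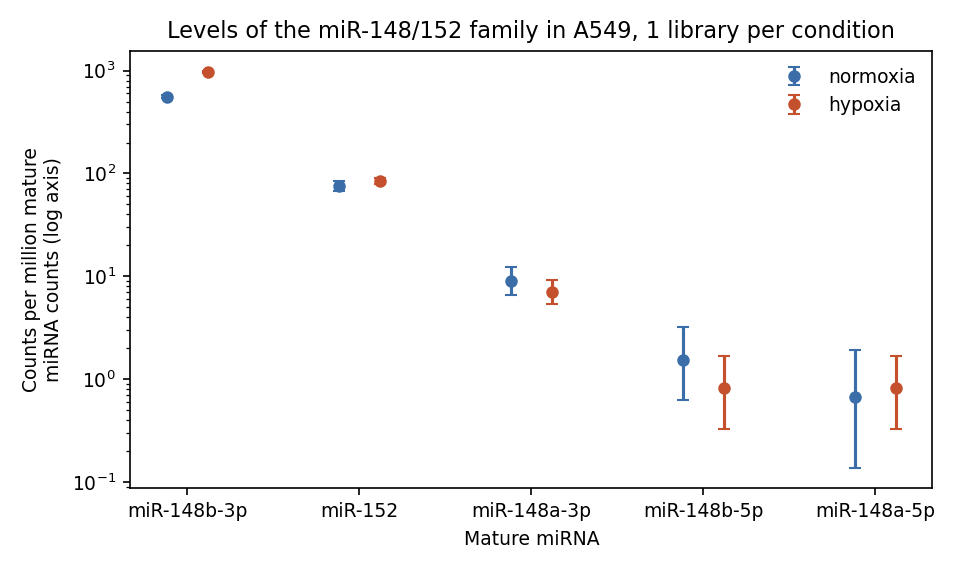
Level of each member in CPM, on a log axis, in the normoxia and hypoxia libraries, with bars for exact 95% counting intervals. miR-148b-3p stands at 560 and 979 CPM, and its intervals are the only ones of the 5 members that do not overlap between libraries.

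Of the 5 members, 3 passed the filter on low values, a mean log2 CPM above 3 with a prior count of 2, as did 339 mature miRNAs in all. Called higher were miRNAs with a log2 ratio of 0.9 or more, and lower those at -0.9 or less. This took 12 of the 339 (3.54%) as higher in hypoxia and 11 (3.24%) as lower, against 0 and 0 of the 3 members. Without the most abundant miRNAs in the totals, 5 of the 339 were higher and 19 lower. A log2 ratio above 0 was found for 202 of the 339 (59.6%) and for 2 of the 3 members, 1 of which was miR-152 with its scaling-dependent sign. The median log2 ratio of the 339 was 0.079 with an SD of 0.51 across miRNAs. It moved to -0.035 with TMM scaling and -0.12 without the most abundant miRNAs. Relative to this median, which removes the scaling, the members stood at 0.73 for miR-148b-3p, 0.086 for miR-152 and -0.44 for miR-148a-3p.

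Among the 339 miRNAs, 19 had a higher ratio than miR-148b-3p, 147 a higher ratio than miR-152 and 280 a higher ratio than miR-148a-3p. The place of miR-148a-3p rests on a ratio whose interval included 0, and its mean log2 CPM of 3.06 was just above the filter, with the higher of its levels in normoxia. Of the 67 miRNAs with a mean level at least that of miR-148b-3p, the 3 with a higher ratio were miR-210 at 1.48, miR-374b-5p at 1.15 and miR-221-3p at 1.14, the last 2 of which are named here after their values were seen. miR-210, a miRNA known to be induced by hypoxia-inducible factors, went from 954 to 2657 CPM, the highest ratio of the 339.

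**Figure D2:**
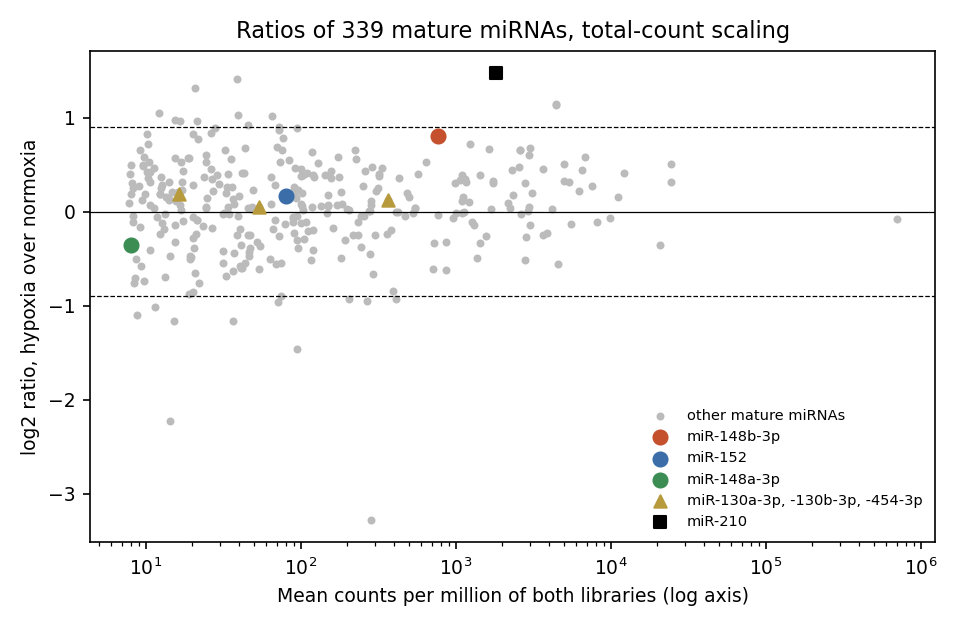
The log2 ratio of hypoxia over normoxia against the mean level in CPM (log axis) for the 339 mature miRNAs past the filter, each point 1 miRNA, with dashed lines at the size rule of 0.9. miR-148b-3p lies at 0.81, below the line, while miR-152 lies at 0.16 (-0.031 without the most abundant miRNAs in the totals) and miR-148a-3p at -0.36.

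The ratios of one member to another do not depend on how the libraries are scaled. Per count of miR-152 there were 7.44 counts of miR-148b-3p in normoxia (6.64 to 8.35) and 11.6 in hypoxia (10.7 to 12.5). The log2 difference was 0.64 (0.44 to 0.84), beyond counting error. Per count of miR-148a-3p there were 61.7 counts of miR-148b-3p in normoxia (45.3 to 86.1) and 138 in hypoxia (107 to 181), a log2 difference of 1.16 (0.55 to 1.76). Between miR-152 and miR-148a-3p the log2 ratios differed by 0.52 (-0.12 to 1.15), an interval that included 0. Within the family, miR-148b-3p thus differed from both relatives in its ratio, and the relatives were not told apart at this depth.

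miR-148b-3p made up most of the summed 3p counts. Its share was 86.9% in normoxia (85.6 to 88.1) and 91.5% in hypoxia (90.9 to 92.0). The share of miR-152 was 11.7% (10.5 to 12.9) and 7.89% (7.34 to 8.46). That of miR-148a-3p was 1.41% (1.01 to 1.91) and 0.663% (0.507 to 0.850). The intervals of all 3 shares were separate between the libraries. Shares of 1 sum are not independent, and a higher share of miR-148b-3p lowers the others.

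The 3 arms together had 2909 counts in normoxia and 9206 in hypoxia, or 644 CPM (621 to 668) and 1070 CPM (1049 to 1093). This is 0.0644% of mature counts in normoxia (0.0621 to 0.0668) and 0.107% in hypoxia (0.105 to 0.109). For the sum, the log2 ratio was 0.73 (0.67 to 0.79). miR-152 and miR-148a-3p without miR-148b-3p summed to 381 and 787 counts, with a log2 ratio of 0.12 (-0.061 to 0.30) that was -0.079 without the most abundant miRNAs in the totals. On the log2 scale miR-148b-3p exceeded this pair by 0.69 (0.50 to 0.88) whatever the scaling.

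The miR-130/miR-301/miR-454 group has an overlapping seed, AGUGCAA. The 6 bases AGUGCA stand in both seeds, moved by 1 position, as in the sequence of its most counted member in RefSeq, shown for the comparison with capitals at bases 2 to 8.
hsa-miR-454-3p: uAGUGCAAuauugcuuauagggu
That seed was found in 6 listed mature miRNAs, the 3p arms of miR-130a, miR-130b, miR-301a and miR-454, miR-301b, and miR-4295, which had 3 and 2 counts. The 5 other than miR-4295 summed to 1927 counts in normoxia and 3985 in hypoxia, 427 CPM (408 to 446) and 463 CPM (449 to 478). For this sum the log2 ratio was 0.12 (0.040 to 0.20), but the interval included 0 under each of the other scalings. Without the most abundant miRNAs in the totals the ratio turned to -0.077. The log2 ratio of the miR-148/miR-152 sum was higher by 0.61 (0.51 to 0.71), a difference free of scaling. The make-up of the group was close between the libraries. miR-454-3p held 82.2% in normoxia (80.4 to 83.9) and 82.7% in hypoxia (81.5 to 83.8), with overlapping intervals. Its log2 ratio exceeded that of its 4 relatives by 0.048 (-0.16 to 0.26), an interval that included 0.

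**Figure D3:**
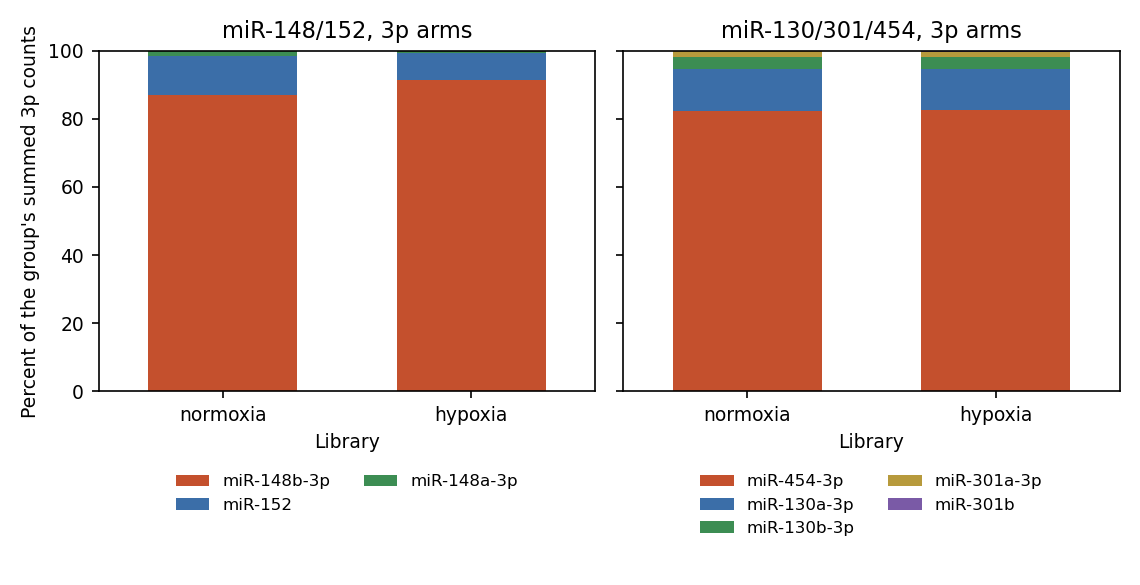
Make-up of the summed 3p counts in percent, for the miR-148/miR-152 family on the left and the miR-130/miR-301/miR-454 group on the right, with 1 bar per library. The share of miR-148b-3p is 86.9% in normoxia and 91.5% in hypoxia, and that of miR-454-3p is 82.2% and 82.7%.

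Both miR-148 hairpins were counted mostly from the 3p arm. For miR-148b there were 361 counts of the 3p arm per count of the 5p arm in normoxia (175 to 899) and 1203 in hypoxia (583 to 2992). The log2 difference between the libraries was 1.74 (-0.0063 to 3.48), an interval that included 0 and rested on 7 counts of the 5p arm in each. For miR-148a the ratio was 13.7 (4.36 to 69.0) in normoxia and 8.71 (3.98 to 22.6) in hypoxia. The intervals of miR-148b and miR-148a did not overlap in either library.

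Over both libraries, with CPM summed, the 3p arm exceeded the 5p arm 651 times for miR-148b and 10.9 times for miR-148a. Of 150 hairpins with both arms listed and at least 100 counts, 62 had more of the 3p arm and 88 more of the 5p arm, and the median ratio of the higher to the lower arm was 15.4. A higher 3p over 5p ratio than that of miR-148b was found for 3 hairpins, miR-19a, miR-365a and miR-25, which are named here after their values were seen. A more unequal pair of arms, in either direction, was found for 8 hairpins, and for 19 with the normoxia library alone and 5 with the hypoxia library alone, among those with both arms above 0 counts. With the normoxia library alone, among hairpins with a 5p count above 0, 8 had a higher 3p over 5p ratio than miR-148b, and with the hypoxia library alone 2 had, miR-19a and miR-365a. For miR-148a, 33 of the 150 hairpins had a higher 3p over 5p ratio and 87 had a more unequal pair. No arm ratio could be given for miR-152, whose 5p arm was not listed.

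**Figure D4:**
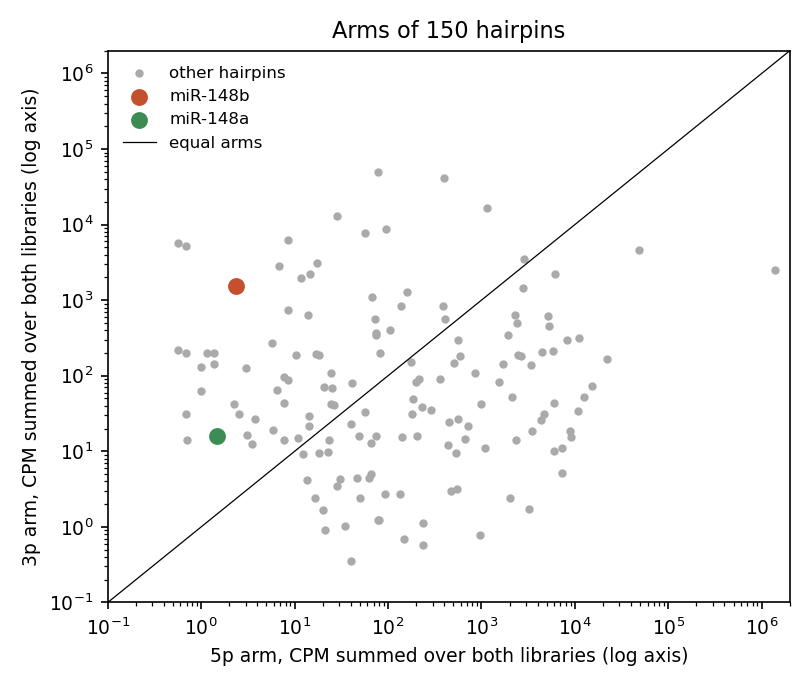
Level of the 3p arm against that of the 5p arm, in CPM summed over both libraries on log axes, for 150 hairpins with both arms listed, with a line where the arms are equal. miR-148b, with a 3p over 5p ratio of 651, is among the points farthest above the line, and miR-148a has a ratio of 10.9.

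The mature miRNAs nearest to miR-148b-3p in level, by the Euclidean distance of log2 CPM over the 2 libraries, were miR-455-3p at 0.38, miR-374a-5p at 0.60 and miR-27b-5p at 0.61. miR-455-3p had 526 CPM in normoxia and 758 in hypoxia. Nearest to miR-152 were miR-1301 at 0.066, miR-455-5p at 0.21 and miR-362-5p at 0.25, and miR-1301 had 72.9 and 81.7 CPM. Members with fewer than 100 counts in a library were left out of this ranking.

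The label of A549, an epithelial line, was checked against miRNAs known to mark cell types. All 7 epithelial markers were listed, with a sum of 1171 CPM in normoxia and 1365 CPM in hypoxia, most of it miR-200b-3p with 880 and 1085 CPM. Of 6 blood cell markers 4 were listed and summed to 20.4 and 24.3 CPM. miR-451a of red cells made up 18.2 and 22.2 CPM of this, and miR-144-3p and miR-223-3p were not listed. Both endothelial markers were listed and summed to 222 and 221 CPM, with miR-126-3p at 179 and 190 CPM and miR-126-5p at 42.5 and 31.4 CPM. The log2 ratio of miR-126-5p was -0.44 (-0.71 to -0.16). Of 4 muscle markers 2 were listed: miR-133a had 0 and 18 counts and miR-133b 0 and 3, a sum of 2.44 CPM in hypoxia, while miR-1 and miR-206 were not listed. The liver marker miR-122-5p had 4 counts in each library. For the epithelial sum the log2 ratio was 0.22 (0.17 to 0.27), and 0.025 (-0.022 to 0.072) without the most abundant miRNAs in the totals. Of the 7 markers, 3 had a log2 ratio above 0 and 4 below, and miR-141-3p, named after its values were seen, went from 37.2 to 25.5 CPM, a log2 ratio of -0.55 (-0.84 to -0.25). Under each of the other 4 scalings, tried on these markers after their values were seen, 1 was above 0 and 6 were below. The part of these markers in the values of the family was not tested.

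**Figure D5:**
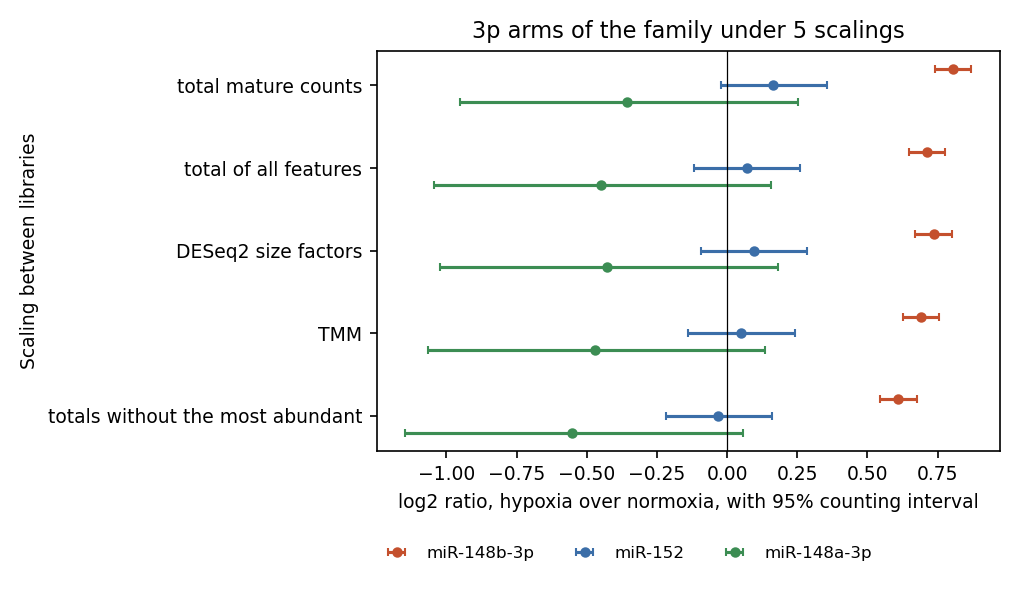
The log2 ratio of hypoxia over normoxia for the 3p arms under 5 scalings between the libraries, with bars for exact 95% counting intervals. miR-148b-3p lies between 0.61 and 0.81 and miR-148a-3p between -0.55 and -0.36, while miR-152 lies between -0.031 and 0.16 and changes sign without the most abundant miRNAs.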

How the data were processed

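The values deposited by the authors are raw counts, 1 per feature and library, without normalization. For SOLiD data their methods name LifeScope v2.5.1 and miRBase v18, without naming this experiment, and the submitters' processing notes name hg19. Counts were scaled to total mature miRNA counts (CPM). Each miRNA read comes from 1 short RNA or from a PCR copy of it, so no length correction was made. Ratios used no prior count. Intervals came from scipy 1.17.1 in Python 3.11.15, and plots from matplotlib 3.10.9. Alternative scalings were TMM (edgeR 4.0.16) and size factors (DESeq2 1.42.0) in R 4.3.3, totals of all features, and totals that omit the 10 miRNAs most abundant in each library (11 in all, left out of both totals). The calculation was tested on simulated independent counts with known ratios. PCR copies were not simulated, so this check does not show that the intervals hold where reads are copies. Named miRNAs were the members, miRNAs with their seed, the miR-130/miR-301/miR-454 group, miR-210, cell type markers, the 3 nearest in level to each member with at least 100 counts in both libraries, and entries for the family's hairpins. Members and lists were chosen with earlier results of these data known.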

Additional observations from a re-analysis of the deposited data

Results flagged for a closer look

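The deposited table also lists miRNA genes by hairpin, outside the mature sequences, and these entries were used in no comparison. They were looked at because they hold counts above 3 in data not otherwise reported. Counts this low were not read as a signal. The MIR148B hairpin had 2 counts in normoxia and 5 in hypoxia, and the MIR152 hairpin had 6 and 16. MIR148A had no such entry. What the reads behind these counts are was not tested.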

How the results depend on the processing

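The log2 ratio of the summed 3p arms (0.73) was positive under each scaling, at 0.62 with TMM, 0.66 with DESeq2 size factors, 0.54 without the 11 most abundant miRNAs (the top 10 of each library, joined) and 0.64 with all features. Each of these alternatives lay below 0.672, the lower limit of the interval with total mature counts. For miR-152 the log2 ratio was -0.031 without the 11 most abundant, and the cause was not tested. In comparisons chosen after seeing the data, the same totals gave -0.077 for the miR-130/miR-301/miR-454 group and -0.079 for miR-148a-3p with miR-152, positive under the other scalings. The interval of the group excluded 0 with total mature counts only. It included 0 with TMM (-0.075 to 0.083), DESeq2 size factors (-0.031 to 0.127), all features (-0.055 to 0.103) and without the 11 most abundant (-0.156 to 0.0022). The 3p arms of the miR-148/miR-152 family were 0.0451% and 0.0702% of all features in normoxia and hypoxia, and 0.416% and 0.604% without the 11 most abundant, because the denominators differ. The count of miRNAs higher in hypoxia (12) was 149 with no filter on low counts, which considers more miRNAs, and 5 without the 11 most abundant. The count of lower ones (11) was 117 with no filter, 7 with a mean CPM of at least 20, 7 with a threshold of 1 and 19 without the 11 most abundant. Higher calls were 52.2% of all calls with the scaling used, 34.8% with TMM, 40% with DESeq2, 34.8% with all features and 20.8% without the 11 most abundant. Of the alternative values, 39 stayed within their counting interval or within 1.5 times the count, 27 moved farther and 3 changed sign. Among the 39 were the shares of miR-148b-3p with 5p arms included and the arm ratios with 0.5 added. The 3 hairpins above miR-148b were, in a split chosen after seeing the data, 8 in normoxia alone and 2 in hypoxia alone, and the 8 with more unequal arms were 19 and 5. No paired analysis was possible because there was a single library for normoxia and for hypoxia, and leaving out a replicate was not possible for the same reason. Depth limits miR-148a-3p and the 5p arms.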

Other observations

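The longest run of bases that miR-148b-3p shares with a listed mature miRNA outside the family is 11 bases, CAGUGCAUCAC, at positions 2 to 12 of miR-148b-3p and 12 to 22 of miR-33a-3p. The run, in capitals, includes the whole seed of miR-148b-3p and forms the 3′ end of miR-33a-3p, whose own seed is another. This search was chosen after seeing the data.
hsa-miR-148b-3p: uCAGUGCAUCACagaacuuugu
hsa-miR-33a-3p: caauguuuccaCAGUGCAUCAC
The next longest run for miR-148b-3p was 8 bases, and the longest for miR-148a-3p and miR-152 were 9 and 8 bases. miR-33a-3p had 24 counts in normoxia and 62 in hypoxia, 5.32 and 7.21 CPM, with a log2 ratio of 0.44 (-0.26 to 1.18).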
